A study of Homo sapiens with 9 samples.

Results

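The transcripts of chromosome 10 were followed through 9 arrays of the pancreatic cancer cell line AsPC-1. They were taken as every row of the deposited table whose row identifier starts with the code for chromosome 10, which gave 798 of 21448 rows (3.72%). Of these, 682 carried 1 gene symbol, and 681 could be put in gene order along the chromosome by the RefSeq annotation of GRCh38.p14: 145 on the short arm, from TUBB8 to ZNF37A, and 536 on the long arm, from ZNF33B on. The other 117 rows had no place there (116 without a symbol, and RPL21, which RefSeq puts on another chromosome) and entered neither arm. The rows were then divided at the median of the row means in the table, a log2 signal of 6.61. This was done because many genes below it may be near the background of an array, which was not measured. Above the division lay 77 short arm rows and 307 long arm rows. The chromosome and its division into arms were chosen because earlier work on these arrays had shown low values along the short arm in 1 of the lines, so the arm medians and the counts in that line are given as a description and carry no test.

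AsPC-1 is an established line of human pancreatic adenocarcinoma. The control cells carried the blank plasmid pBAsi-hU6 NEO; the cells of the other groups carried the same plasmid with shRNA-1 (called sh1) or shRNA-2 (called sh2), hairpins that target SLP-2, the inner mitochondrial membrane protein encoded by STOML2. All 3 groups were kept with Geneticin for 3 weeks and each was grown from a single colony, so that each group is 1 clone and the hairpin and the clone cannot be told apart. Each group had 3 arrays; nothing in the labels says that they came from separate cultures, so a p-value here weighs a difference against array-to-array spread within single clones, which could be technical alone.

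The centromere divides a human chromosome into a short arm (p) and a long arm (q). Genes that lie next to each other on an arm often have unrelated functions, and each is regulated largely through its own promoter and enhancers. The short arm of chromosome 10 carries, among others, the genes of the fibronectin receptor subunit integrin beta 1 (ITGB1), the intermediate filament protein vimentin (VIM) and the repressor of epithelial genes ZEB1; the long arm carries FGFR2, RET and FAS.

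Promoter sequences of 4 genes are shown first because the pattern turns on whether neighbours on an arm moved with one another: ITGB1 and KLF6 lie on the short arm and differ in their values, and ZNF33A and ZNF33B are near-identical zinc finger genes on opposite sides of the centromere. Each is the RefSeq sequence of GRCh38.p14 from 250 bases before to 50 bases after the first listed start, 5′ to 3′ on the strand of the gene, with every CG dinucleotide in capitals. ITGB1 is at chr10:32958181-32958480 on the minus strand, KLF6 at chr10:3785160-3785459 on the minus strand, ZNF33A at chr10:38010425-38010724 on the plus strand and ZNF33B at chr10:42638521-42638820 on the minus strand.
ITGB1: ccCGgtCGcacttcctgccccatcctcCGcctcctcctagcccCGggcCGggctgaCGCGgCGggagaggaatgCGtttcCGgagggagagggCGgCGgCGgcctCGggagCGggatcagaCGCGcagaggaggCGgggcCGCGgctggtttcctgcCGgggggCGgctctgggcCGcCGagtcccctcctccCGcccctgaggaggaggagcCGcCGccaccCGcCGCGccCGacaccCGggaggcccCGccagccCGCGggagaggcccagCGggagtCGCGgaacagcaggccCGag
KLF6: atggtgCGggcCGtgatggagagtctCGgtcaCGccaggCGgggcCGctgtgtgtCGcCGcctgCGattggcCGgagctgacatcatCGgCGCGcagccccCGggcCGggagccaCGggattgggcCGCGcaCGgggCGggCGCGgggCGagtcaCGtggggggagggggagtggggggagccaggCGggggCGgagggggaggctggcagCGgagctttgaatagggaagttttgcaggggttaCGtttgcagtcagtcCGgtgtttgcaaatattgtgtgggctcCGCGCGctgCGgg
ZNF33A: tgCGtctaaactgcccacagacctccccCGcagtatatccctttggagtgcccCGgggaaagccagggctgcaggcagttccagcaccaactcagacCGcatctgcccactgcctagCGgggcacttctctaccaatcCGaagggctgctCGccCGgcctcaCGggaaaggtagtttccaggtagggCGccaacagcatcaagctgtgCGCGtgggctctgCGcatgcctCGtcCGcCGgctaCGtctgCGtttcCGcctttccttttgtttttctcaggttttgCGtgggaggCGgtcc
ZNF33B: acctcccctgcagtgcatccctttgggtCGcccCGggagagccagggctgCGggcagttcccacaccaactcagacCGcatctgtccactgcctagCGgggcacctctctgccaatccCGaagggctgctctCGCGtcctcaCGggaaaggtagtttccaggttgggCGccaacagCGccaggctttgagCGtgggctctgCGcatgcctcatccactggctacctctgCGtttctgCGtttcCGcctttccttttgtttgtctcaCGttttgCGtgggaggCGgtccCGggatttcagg

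The dinucleotide CG, which reads the same on both strands, occurred 39 times in the ITGB1 window, 33 times in that of KLF6, 21 times in that of ZNF33A and 20 times in that of ZNF33B. CG is the dinucleotide at which human DNA is mainly methylated, and windows rich in it are typical of broadly expressed genes. At least 1 CG was present in 95.8% of the 27305 promoters of the same length in the RefSeq table, whose median count was 14. An entry was found for 608 of the 681 placed rows. The median count was 28 over 70 short arm rows above the median signal and 25 over 268 long arm rows above it, against 18 for 61 short arm rows and 11.5 for 208 long arm rows below it. No methylation was measured. In a local alignment the ZNF33A and ZNF33B windows were identical at 254 of 290 positions (87.6%), with 24 mismatches and 12 gap positions. The alignment covers the promoter windows alone; whether array probes share signal between these near-copies was not tested, and the values of both are uncertain for that reason.

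STOML2, the targeted gene, had log2 signals of 13.70, 13.66 and 13.65 in the control arrays, 8.36, 8.42 and 8.18 in sh1 and 7.85, 7.99 and 7.35 in sh2. This matches the labels of control and hairpin arrays. Both hairpins target STOML2, so its values do not check which arrays are sh1 and which are sh2. Array medians ran from 6.57 to 6.65, and arrays correlated at 0.994 to 0.996 within groups and 0.982 to 0.988 between them. The keratin genes KRT8, KRT18 and KRT19, which define epithelial cells, stood between 13.23 and 16.97 in every array. Some epithelial markers differed between the lines: group means in control, sh1 and sh2 were 8.94, 13.88 and 9.68 for EPCAM and 8.71, 10.74 and 8.19 for CDH1. KRT19 ranged from 14.13 to 16.21 over the arrays, with its lowest group mean in sh1. KRT7 stood at 9.41, 9.19 and 9.64. The part of these differences in the short arm values was not tested. The 10 markers of immune, endothelial and fibroblast cells all lay between 2.84 and 6.46, under the median of the table.

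In the sh1 line, the signals of the expressed short arm genes were about 1 log2 unit lower than in the control line along the whole arm, while those of the long arm were centred near 0. The median difference over the 77 short arm rows above the median signal was -1.04, a linear ratio of 0.487, with quartiles of -1.32 and -0.80. It was 0.013 over the 307 long arm rows, with quartiles of -0.29 and 0.23. In the sh2 line the same short arm rows had a median difference from the control of 0.047, and the long arm rows of -0.07. The corresponding medians over the rows above the median signal on all other chromosomes were 0.05 in sh1 and 0.03 in sh2.

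**Figure D1:**
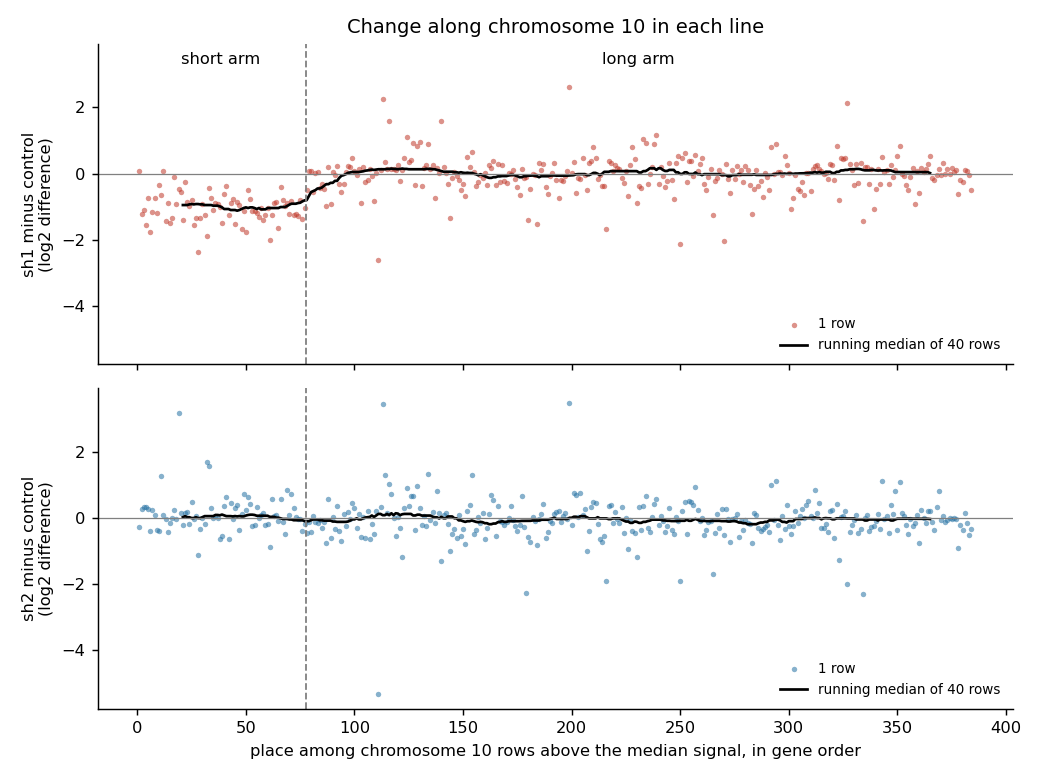
Each point is a chromosome 10 row above the median signal, placed by its rank in gene order (x axis, from the short arm end to the long arm end), with its difference from the control mean in log2 units on the y axis, for sh1 (upper panel) and sh2 (lower panel); the black line is the running median of 40 rows and the dashed line the centromere. In sh1 the line runs far below 0 along the short arm, to -1.12, and returns to about 0 on the long arm, and in sh2 it stays between -0.19 and 0.14.

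The same was seen array by array. For the short arm rows above the median signal, the median difference from the control mean was -1.02, -1.12 and -1.06 in the 3 sh1 arrays, 0.063, 0.013 and 0.087 in the sh2 arrays, and -0.017, -0.04 and 0.027 in the control arrays themselves. All 3 sh1 arrays lay about 1 unit below the other 6, which ran from -0.04 to 0.087. The short arm median of sh2 was 0.0083 without control array 2 and 0.095 without control array 3. The group means of these array medians were -1.07 ± 0.05 (SD, n = 3) for sh1 and 0.054 ± 0.038 (SD, n = 3) for sh2. On the long arm the array medians were 0, 0.027 and 0.017 in sh1, and -0.057, -0.077 and -0.07 in sh2, so that no array of either line left the range from -0.077 to 0.04.

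**Figure D2:**
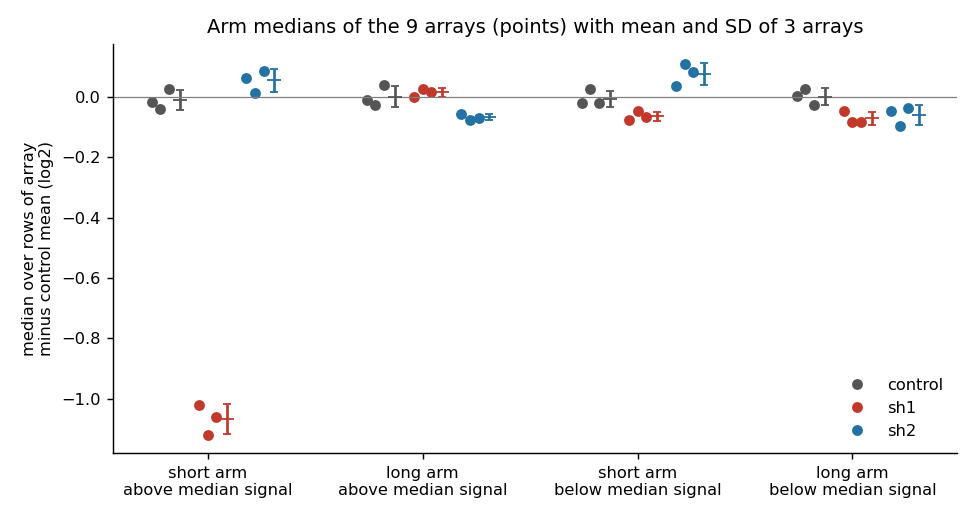
Points are the 9 arrays; the y axis is the median over rows of the array's log2 signal minus the control mean, for the rows of each arm above and below the median signal, with the mean and SD of the 3 arrays of a group beside them. The 3 sh1 arrays sit between -1.12 and -1.02 for the short arm rows above the median signal, and no other point is under -0.097.

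The differences on the short arm were broad rather than carried by a few genes. Of the 77 rows above the median signal, 75 were below 0 in sh1, 57 lay between -1.5 and -0.5 and 11 were under -1.5. By limma with Benjamini-Hochberg adjustment over all 21448 rows, 67 of the 77 were lower and none higher at an adjusted p under 0.05 (70 and 0 at an unadjusted p under 0.05), where 14.3% of all rows above the median signal were called lower and 15.7% higher; as this is the contrast that led to the chromosome, nothing is read from that excess. On the long arm 43 of 307 rows were lower and 34 higher. The signals of 69 of the 77 short arm rows did not overlap between sh1 and control arrays and were lower, against 23.9% of all rows above the median signal. Over the whole chromosome 191 of 798 rows were called in sh1, against 18.8% of the table. They include 79 of the 145 short arm rows and 94 of the 536 long arm rows, so nothing is read from the pooled count.

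In sh2 against control, 12 of the 77 short arm rows were higher and 4 lower, where 13.6% and 12.9% of all rows above the median signal were called; on the long arm 36 of 307 were higher and 45 lower. These shares, 15.6% and 5.19% on the short arm and 11.7% and 14.7% on the long arm, stood near or under the background. Over the whole chromosome 133 of 798 rows were called in sh2, against 16.3% of the table. In the direct comparison of sh2 with sh1, the short arm median was 1.08, and 69 of the 77 rows were higher in sh2 with none lower by limma (74 and 0 unadjusted), where 9.29% and 8.64% of rows above the median signal were called. This contrast uses the same low sh1 values that led to the chromosome, so nothing is read from that excess either. The long arm median of that comparison was -0.047, with 25 rows higher and 27 lower in sh2. Over the whole chromosome 155 rows were called in this comparison, against 11.3% of the table. They include 85 of the 145 short arm rows and 62 of the 536 long arm rows, so nothing is read from the pooled count. The 3 comparisons share arrays pairwise and are not independent of one another.

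The median sh1 difference of short arm rows was larger in size in the higher ranges of signal. For the 29 rows whose mean signal was above the upper quartile of the table (9.97), the median difference was -1.24 and 26 were called lower. It was -0.95 for the 48 rows between the median and the upper quartile, of which 41 were called lower. For the 32 rows between the lower quartile (4.21) and the median it was -0.15, with 10 called lower and 2 higher. The 36 rows below the lower quartile had a median of 0.018, and by limma 0 were called in either direction (2 higher and 0 lower at an unadjusted p under 0.05). Signals that low may lie near the floor of an array, which was not measured, so these rows do not show whether their genes fell. Over the table, 14.3% of rows above the median signal were called lower in sh1 and 15.7% higher. Below it the shares were 3.7% and 3.8%, so calls were rarer at low signal on any chromosome. As the arm was picked for its low sh1 values, nothing is read from the counts called here. Across the 77 rows above the median, the Spearman correlation of the difference with the mean signal was -0.332 in sh1 and -0.33 in sh2. For sh2 minus sh1 it was -0.0297. Within these rows the relation with signal was thus alike in both lines, which are compared with the same control arrays, and not particular to sh1. These correlations are descriptions over genes measured on the same arrays.

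**Figure D3:**
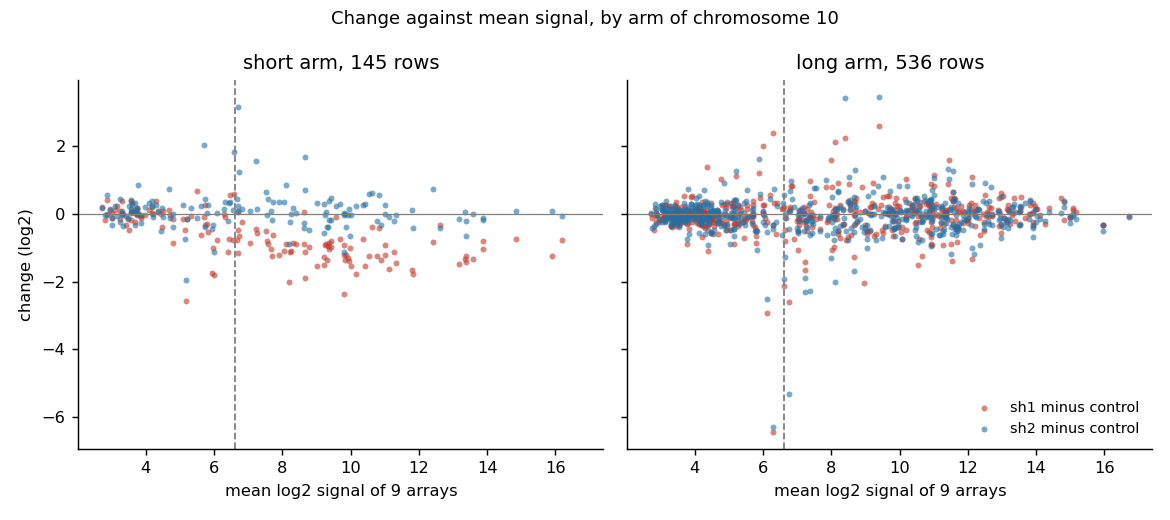
The y axis is the difference of each line from the control in log2 units and the x axis the mean log2 signal over the 9 arrays, for the 145 rows of the short arm (left) and the 536 rows of the long arm (right); the dashed line is the median of the table, 6.61. On the short arm the sh1 points leave 0 as the signal rises, to a median of -1.24 above the upper quartile. The sh2 points and both sets on the long arm stay scattered around 0. Among short arm rows above the median, the Spearman correlation with signal was alike in sh1 (-0.332) and sh2 (-0.33).

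The rows nearest the division at 6.61 are given here for their signal alone. ZNF22, LOXL4 and AFAP1L2 lay just above it, with mean signals of 6.620, 6.624 and 6.653. PTCHD3, NUDT13 and SLC29A3 lay just below, at 6.594, 6.572 and 6.559. Of these 6 rows only PTCHD3 is on the short arm, and its difference in sh1 was 0.58, opposite to most of that arm. A single row does not show how the division affects the arm.

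In blocks of 20 neighbouring rows above the median signal, sh1 stood at -0.90 from TUBB8 to KIN, -0.99 from ATP5F1C to MINDY3, -1.12 from PTER to WAC and -0.94 from SVIL to RET, a block with 17 short arm rows and 3 from the long arm. The next block, from CSGALNACT2 to AGAP6, stood at -0.018, and the later long arm blocks ranged from -0.12 to 0.26. Over the same blocks sh2 ranged from -0.26 to 0.16. A running median of 40 rows in sh1 was below -0.4 in a single run of 65 windows, which began with TUBB8 at the end of the short arm, reached -1.12 and was centred last on ZNF32; in sh2 against control no window passed 0.4 in size. In sh2 against sh1 a single run of 60 windows was above 0.4, from TUBB8, with a highest value of 1.14 and a last centre on RET.

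The step lay at the centromere, as far as gene order can place it. The last 15 short arm rows above the median signal, from MTPAP to ZNF37A, had a median of -0.98 in sh1, from -1.63 (ZEB1) to -0.41 (ARHGAP12), and 14 of them were called lower. The first 15 long arm rows, from ZNF33B to AGAP4, had a median of -0.047, from -0.97 (DEPP1) to 0.24 (AGAP4), and 2 were called lower. Of all rows above the median signal, 14.3% were called lower in sh1, and the long arm count stood near that share. The short arm count comes from the contrast that led to the chromosome, so nothing is read from it. In sh2 the medians of these rows were 0.017 and -0.12.

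**Figure D4:**
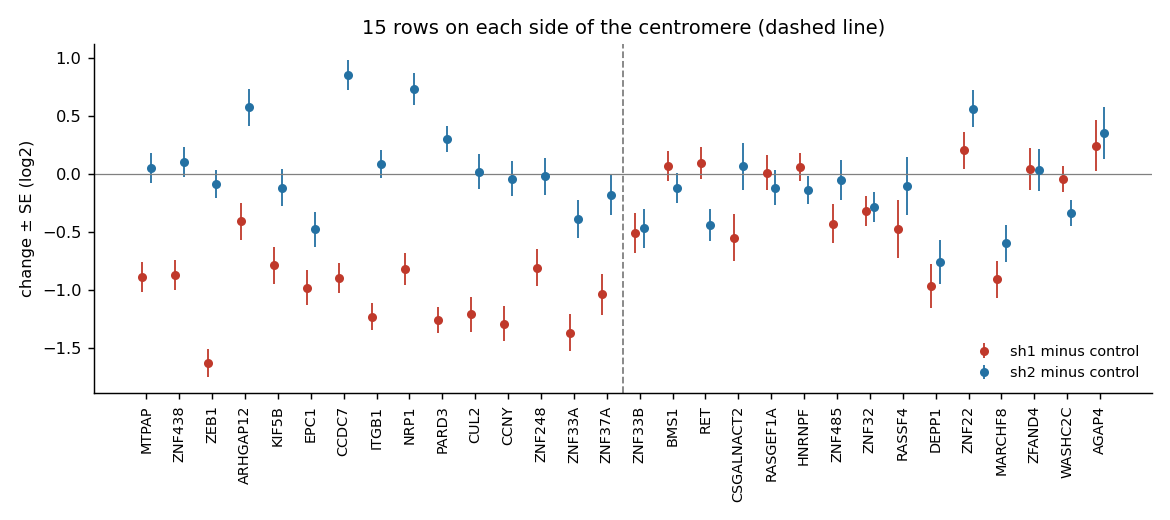
Differences from the control (y axis, log2 units, with the standard error of the fit) are drawn for the 15 rows above the median signal on each side of the centromere, in gene order along the x axis, for sh1 and sh2. The 15 short arm points of sh1 run from -1.63 to -0.41, and 8 of the 15 long arm points are below 0.

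The zinc finger genes listed around the centromere encode probable transcription factors. All measured members were below 0 in sh1, and those called there lay on the short arm. Of the 9 measured members, the 4 on the short arm fell in sh1: ZNF33A changed by -1.37, ZNF25 by -1.11, ZNF37A by -1.04 and ZNF248 by -0.81 on the log2 scale. None of the 5 on the long arm passed the test by limma there (3 were lower at an unadjusted p under 0.05); 4 of these 5 lay between -0.51 and -0.32 and the other, ZNF239, at -0.23. The list had a median of -0.51 in sh1 and -0.29 in sh2, against 0.02 and 0.017 over the table, and in sh2 it held 2 called genes, ZNF488 and ZNF239, both lower. Over all rows 9% were called lower in sh1 and 7.98% in sh2. The short arm was picked for its low sh1 values, so nothing is read from its sh1 count.

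ZNF33A measured 9.72, 9.86 and 10.12 in control, 8.61, 8.44 and 8.53 in sh1 and 9.23, 9.72 and 9.58 in sh2. Its near-copy ZNF33B measured 9.66, 9.04 and 9.69 in control, 8.88, 8.90 and 9.07 in sh1 and from 8.88 to 9.11 in sh2. The sh1 arrays of ZNF33A lay below all others, whereas those of ZNF33B overlapped the control and the sh2 arrays. The difference of ZNF33A in sh1 was -1.37 ± 0.16 (SE; limma adjusted p = 8.83e-05, n = 3 a group), and that of ZNF33B -0.51 ± 0.17 (adjusted p = 0.0639). ZNF37A, the last gene of the short arm here, differed by -1.04 ± 0.18 in sh1 (adjusted p = 0.0019) and by -0.18 in sh2 (adjusted p = 0.599).

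The lists that follow hold genes of both signal ranges, and their counts stand against the shares of all rows of the table: 9% lower and 9.76% higher in sh1, and 7.98% lower and 8.33% higher in sh2. For the short arm lists, and for short arm members of the other lists, nothing is read from the sh1 counts, since the arm was picked for its low sh1 values.

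Genes of adhesion, polarity and the cytoskeleton formed the longest list on the short arm. Of its 15 measured genes, 11 fell in sh1 and none rose by limma (11 and 0 unadjusted; 9% and 9.76% of the table), with a median of -1.12. In sh2, 3 rose and 1 fell, with a median of 0.083. ITGB1, the beta subunit shared by receptors for collagen, laminin and fibronectin, measured 16.30, 16.23 and 16.30 in control, 15.07, 14.93 and 15.14 in sh1, and 16.31, 16.32 and 16.45 in sh2. Every sh1 array was below every other array, and the sh2 arrays were level with or just above the control. The sh1 difference was -1.23 ± 0.12 (adjusted p = 2.32e-05), and that of sh2 was 0.083 (adjusted p = 0.72). Against the median of its arm, ITGB1 in sh1 stood at -0.19.

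Vimentin, the intermediate filament of mesenchymal cells, was among the brightest rows of the arm. VIM measured 16.41, 16.48 and 16.45 in control, 15.77, 15.59 and 15.69 in sh1 and 16.53, 16.37 and 16.30 in sh2. The sh1 arrays were again the lowest, and control and sh2 overlapped. It fell by 0.76 in sh1 (SE 0.12, adjusted p = 0.000895), less than the median of the arm, and differed by -0.047 in sh2 (adjusted p = 0.858).

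Other members of the list fell further in sh1. SVIL, which encodes the actin-bundling protein supervillin, fell by 2.01 in sh1 (9.19, 9.18 and 9.05 in control; 7.15, 7.20 and 7.03 in sh1) and stood at -0.88 in sh2 (7.73, 8.80 and 8.25; adjusted p = 0.0163). The sh2 arrays of SVIL lay between those of sh1 and control, and were widely spread; without control array 1 or control array 2 the sh2 call was lost (adjusted p = 0.0563 and 0.0529). ARHGAP21, a GTPase-activating protein, fell by 1.76 in sh1 and stood at 0.24 in sh2. PARD3, a scaffold of the cell polarity complex, fell by 1.26, and GDI2, which recycles Rab GTPases, fell by 1.48. The members with no call in sh1, ITGA8, NEBL, MYO3A and PLXDC2, all had mean signals from 3.59 to 4.67, under the median of the table.

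A few genes of the short arm departed from the rest of it in sh2. FRMD4A, a scaffold protein that links the polarity complex to an Arf exchange factor, measured 8.90, 8.30 and 8.99 in control, 7.49, 6.46 and 6.56 in sh1 and 10.40, 10.34 and 10.51 in sh2. The 3 groups did not overlap: sh1 was the lowest and sh2 the highest. It fell by 1.89 ± 0.26 in sh1 (adjusted p = 0.000333) and rose by 1.69 in sh2 (adjusted p = 0.000914). NRP1, a co-receptor for semaphorins and VEGF, also fell in sh1, by 0.82, and rose in sh2, by 0.73.

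SFMBT2, a Polycomb group protein that binds methylated histones, measured 5.48, 5.45 and 6.44 in control, 5.27, 5.36 and 5.36 in sh1 and 8.56, 9.19 and 9.13 in sh2. Only the sh2 arrays were high, and the control array at 6.44 stood apart from the other two. It rose by 3.17 in sh2 (adjusted p = 6.08e-06), the largest rise among the called chromosome 10 rows of the short arm, and differed by -0.46 in sh1 (adjusted p = 0.259). GPR158, an orphan receptor of the nervous system, rose by 2.04 in sh2, from 5.05, 4.96 and 5.16 in control to 6.98, 7.34 and 6.98, with sh1 overlapping the control. PTCHD3, a patched-domain membrane protein, rose in both lines, by 0.58 in sh1 and 1.84 in sh2. FAM107B rose in sh2 by 1.56 and AKR1E2, an aldo-keto reductase, by 1.25. Of the 5 aldo-keto reductase genes AKR1E2 was the one called in sh2; the other four had signals of 3.00 to 4.18, and no member of the list passed the test by limma in sh1 (1 was lower at an unadjusted p under 0.05).

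Among 10 measured transcription and chromatin regulators of the short arm, 7 fell in sh1 and none rose by limma (median -0.98; 7 and 1 unadjusted; 9% and 9.76% of the table). In sh2 none passed the test by limma (median -0.048), and at an unadjusted p under 0.05 there was 1 higher and 2 lower. BMI1 and CREM were not analysed here. ZEB1, the repressor of E-cadherin, measured 11.73, 11.69 and 11.68 in control, 10.11, 10.22 and 9.88 in sh1 and 11.62, 11.62 and 11.60 in sh2. The sh1 arrays stood well below the other 6. The sh1 difference was -1.63 ± 0.12 (adjusted p = 3.65e-06), which is -0.59 from the median of its arm, and that of sh2 was -0.087 (adjusted p = 0.722). ZMYND11, a reader of histone methylation on gene bodies, fell by 1.22 in sh1. SUV39H2, a lysine methyltransferase of histones, fell by 1.09, and WAC, an adaptor in histone ubiquitination, fell by 1.04. GATA3, a transcription factor of luminal epithelia and T cells, fell by 0.99 at a lower mean signal of 5.98.

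KLF6, a zinc finger factor of the Krüppel-like family, was an exception at high signal. It measured 12.86, 12.82 and 12.97 in control, 12.39, 12.97 and 12.26 in sh1 and 12.41, 12.50 and 12.52 in sh2. An sh1 array reached the highest control array, at 12.97. The sh1 arrays overlapped those of control and of sh2, whereas every sh2 array lay below every control array. Neither the sh1 difference of -0.34 ± 0.17 (adjusted p = 0.213) nor the sh2 difference of -0.41 (adjusted p = 0.147) passed the test. Its promoter window above held 33 CG, near the 39 of ITGB1.

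The rows of the short arm that were not called in sh1 despite a signal above the median numbered 10: TUBB8, KLF6, AKR1E2, UCN3, IL15RA, SFMBT2, TAF3, FAM107B, PTER and ARHGAP12. TUBB8, a beta-tubulin of the oocyte and the first row of the arm, and UCN3, a peptide hormone of pancreatic beta cells, were the 2 rows above 0, at 0.073 and 0.063. TUBB8 measured between 8.27 and 9.02 in every array and belongs to a family of closely alike tubulin genes, so its signal may come partly from copies elsewhere, which was not tested. IL15RA, the alpha chain of the interleukin 15 receptor, measured 9.40, 9.56 and 9.58 in control and 9.52, 9.50 and 9.24 in sh1, a difference of -0.093 (adjusted p = 0.707). In the sh2 line 5 of these 10 rows rose, namely SFMBT2, FAM107B, AKR1E2, PTER and ARHGAP12, where 13.6% of rows above the median signal rose. As the 10 rows were picked by their sh1 values against the same control arrays, nothing is read from that count. KLF6, UCN3, IL15RA, ZNF33B, NRP1, PARD3, TAF3, PTER, ARHGAP12, RSU1 and NMT2 are outside the rule for naming genes and were picked after their values were seen. The same holds for further list members given with values: ZNF248, ZNF239, GATA3, PHYH, YME1L1, PFKFB3, PFKP, PPA1, HK1, HKDC1, PANK1, GOT1, KIF20B, ZWINT, CDK1, MKI67, KIF11, VCL, PLAU, PNLIP, PNLIPRP1, PNLIPRP2, ITGA8, NEBL, MYO3A and PLXDC2. Genes at the ends of blocks or beside the signal limit are named for their place or signal.

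Of 10 measured kinase and signalling genes of the short arm, 6 fell in sh1 and none rose by limma (6 and 0 unadjusted; 9% and 9.76% of the table), with a median of -0.91, and 1 fell in sh2 (7.98% of the table), with a median of 0.088. FZD8 was not analysed here. PIP4K2A, a phosphoinositide kinase, fell by 1.66 in sh1, and STAM, an adaptor of endosomal sorting, fell by 1.53. CCNY, a membrane-anchored cyclin, fell by 1.29, and MASTL, the kinase that restrains PP2A in mitosis, fell by 1.04. Of these 4, the sh2 values were 0.11, 0.30, -0.043 and 0.093, all without a call. CAMK1D, a calcium- and calmodulin-dependent kinase, fell in both lines: it measured 6.47, 6.44 and 7.18 in control, 4.12, 4.28 and 3.95 in sh1 and 4.84, 4.45 and 4.91 in sh2. Both lines lay below every control array. The fall was -2.58 for sh1 (adjusted p = 5.86e-06) and -1.96 for sh2 (adjusted p = 5.95e-05), from a control level near the median of the table.

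OPTN, the autophagy receptor optineurin, had the largest fall of the arm above the median signal. It measured 10.95, 11.08 and 10.95 in control, 8.98, 8.35 and 8.53 in sh1 and 9.88, 9.78 and 9.92 in sh2. The groups did not overlap, with sh2 between the others. It fell by 2.37 ± 0.16 in sh1 (adjusted p = 1.53e-06), and the sh2 difference was -1.13 (adjusted p = 0.000481). The other short arm rows above the median signal that fell in sh2 were SVIL, RSU1 and NMT2.

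The list of metabolic genes held members of both arms. Of 30 genes of glycolysis, mitochondria and related metabolism, 10 fell and 4 rose in sh1 (median -0.27), and 4 fell and 3 rose in sh2 (median -0.19). Over all rows the shares were 9% lower and 9.76% higher for sh1, and 7.98% lower and 8.33% higher for sh2. Of the 30 genes, 26 lay above the median signal, where 14.3% fell and 15.7% rose in sh1. In sh2 12.9% fell and 13.6% rose there, so the sh2 counts stood near the background. The 7 members on the short arm all fell in sh1, and as the arm was picked for low sh1 values, nothing is read from that. IDI1, an isomerase of the mevalonate pathway, changed by -1.76, ECHDC3 by -1.74, ATP5F1C, the gamma subunit of ATP synthase, by -1.41, PHYH, an enzyme of peroxisomal alpha-oxidation, by -1.35 and YME1L1, an inner membrane protease, by -1.32. PFKFB3, which makes the activator of phosphofructokinase, changed by -0.86 and PFKP, the platelet-type phosphofructokinase, by -0.74. None of these 7 was called in sh2, where they stood between -0.45 and 0.097. On the long arm 3 fell in sh1, namely SFXN3, a mitochondrial serine carrier (-2.03), PPA1, an inorganic pyrophosphatase (-1.33), and HK1, hexokinase 1 (-0.74). HKDC1, a hexokinase-like enzyme, rose by 1.40 there, PANK1 by 0.79, GOT1 by 0.61 and LIPA by 0.47.

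ATP5F1C measured 14.06, 13.74 and 13.96 in control, 12.63, 12.39 and 12.50 in sh1 and 13.88, 13.64 and 13.57 in sh2. SFXN3 measured 9.79, 9.73 and 9.92 in control, 7.66, 7.76 and 7.93 in sh1 and 9.45, 9.20 and 9.23 in sh2. In both genes the sh1 arrays lay below all others. SFXN3 also fell by 0.52 in sh2 (adjusted p = 0.0183), a call lost without control array 1 or 3 or sh2 array 2 or 3 (adjusted p from 0.0525 to 0.0699).

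The list of cell division and DNA replication genes held 16 measured members, of which 2 rose and 2 fell in sh1 (median 0.13) and 3 rose and 1 fell in sh2 (median 0.045). These counts stand beside 9.76% and 9% of the table in sh1 and 8.33% and 7.98% in sh2. Of the 16 genes, 14 lay above the median signal, where 15.7% rose and 14.3% fell in sh1. In sh2 13.6% rose and 12.9% fell there. The 2 that fell in sh1 lie on the short arm: CDC123, an assembly factor of translation initiation factor eIF2, by 1.34, and MASTL. The 2 that rose lie on the long arm: DNA2, a helicase and nuclease, by 0.93, and KIF20B, a mitotic kinesin, by 0.46. In sh2 DNA2 rose by 0.65 and KIF20B by 0.45, CDNF rose by 0.87 and ZWINT, a kinetochore protein, fell by 0.64. CDNF is a neurotrophic factor and not a division gene, and its signals stayed between 3.28 and 4.49. The DNA2 call in sh2 was lost without control array 2, control array 3 or sh2 array 3 (adjusted p = 0.0581, 0.0786 and 0.0708). CDK1, MKI67 and KIF11, markers of cycling cells on the long arm, stood at 0.11, 0.31 and 0.17 in sh1 and at 0.32, 0.05 and -0.033 in sh2, none of them called.

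The largest changes on the long arm were those of single genes. PLPP4, a phospholipid phosphatase, had the largest fitted difference on the chromosome. It measured 10.43, 10.53 and 10.62 in control, 4.19, 4.19 and 3.89 in sh1 and 4.49, 3.85 and 4.38 in sh2. Both lines were near the lower quartile of the table, 4.21. Whether these signals lie above background was not tested, so the size of the fall may be understated. The fitted difference was -6.44 ± 0.17 for sh1 (adjusted p = 1.62e-09) and -6.29 for sh2 (adjusted p = 1.63e-09).

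BICC1, an RNA-binding protein, measured 9.47, 9.15 and 9.57 in control, 7.09, 6.30 and 6.98 in sh1 and 4.61, 4.01 and 3.60 in sh2. The 3 groups did not overlap, and sh2 was the lowest. Its differences were -2.61 in sh1 and -5.32 in sh2. Several genes fell in both lines. The differences in sh1 and sh2 were -2.93 and -2.52 for ACSL5, a ligase that activates long-chain fatty acids, and -2.14 and -1.91 for LOXL4, a lysyl oxidase that crosslinks matrix. They were -1.66 and -1.89 for PPP1R3C, a glycogen-targeting phosphatase subunit, and -1.43 and -2.30 for NANOS1, an RNA-binding repressor of translation.

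PAPSS2, which makes the sulphate donor for glycan sulphation, rose in both lines. It measured 7.29, 7.17 and 7.66 in control, 9.95, 9.81 and 10.19 in sh1 and 10.78, 10.90 and 10.84 in sh2. Every array of both lines exceeded every control array. It rose by 2.61 in sh1 (adjusted p = 5.73e-07) and by 3.47 in sh2 (adjusted p = 5.04e-08). TMEM26 rose by 2.25 and 3.43, RTKN2 by 1.60 and 1.02, ANK3, the membrane anchor ankyrin G, by 1.22 and 1.61, and MYPN, a sarcomere protein, by 1.09 and 0.90. RHOBTB1 rose by 1.13 and 1.27, with adjusted p-values of 0.0282 and 0.0176; the first call was lost without control array 2 or 3 or any single sh1 array (adjusted p from 0.0505 to 0.106), and the second without control array 3 or sh2 array 2 (0.0721 and 0.0504).

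Other long arm genes moved in opposite directions in the 2 lines or in 1 of them. ATRNL1, an attractin-like membrane protein, measured 8.14, 8.03 and 8.03 in control, 9.84, 10.38 and 10.34 in sh1 and 6.38, 6.03 and 5.80 in sh2. The groups did not overlap, with sh1 above and sh2 below the control. It rose by 2.12 in sh1 (adjusted p = 9.56e-06) and fell by 2.00 in sh2 (adjusted p = 1.85e-05). MACROH2A2, a variant histone of silent chromatin, likewise rose by 1.58 in sh1 and fell by 1.29 in sh2.

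FGFR2, a receptor for fibroblast growth factors, measured 5.78, 5.57 and 5.58 in control, 8.24, 8.22 and 7.64 in sh1 and 5.08, 5.28 and 5.23 in sh2. Only the sh1 arrays were above the median of the table. It rose by 2.39 in sh1 (adjusted p = 2.12e-06) and differed by -0.45 in sh2 (adjusted p = 0.102). CDH23, a cadherin of sensory hair cells, rose by 2.02 in sh1 and stood at -0.25 in sh2 without a call. ZNF503, a zinc finger repressor, fell by 2.27 in sh2, from 8.32, 7.99 and 8.18 to 6.37, 5.73 and 5.59, while its sh1 arrays overlapped the control.

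**Figure D5:**
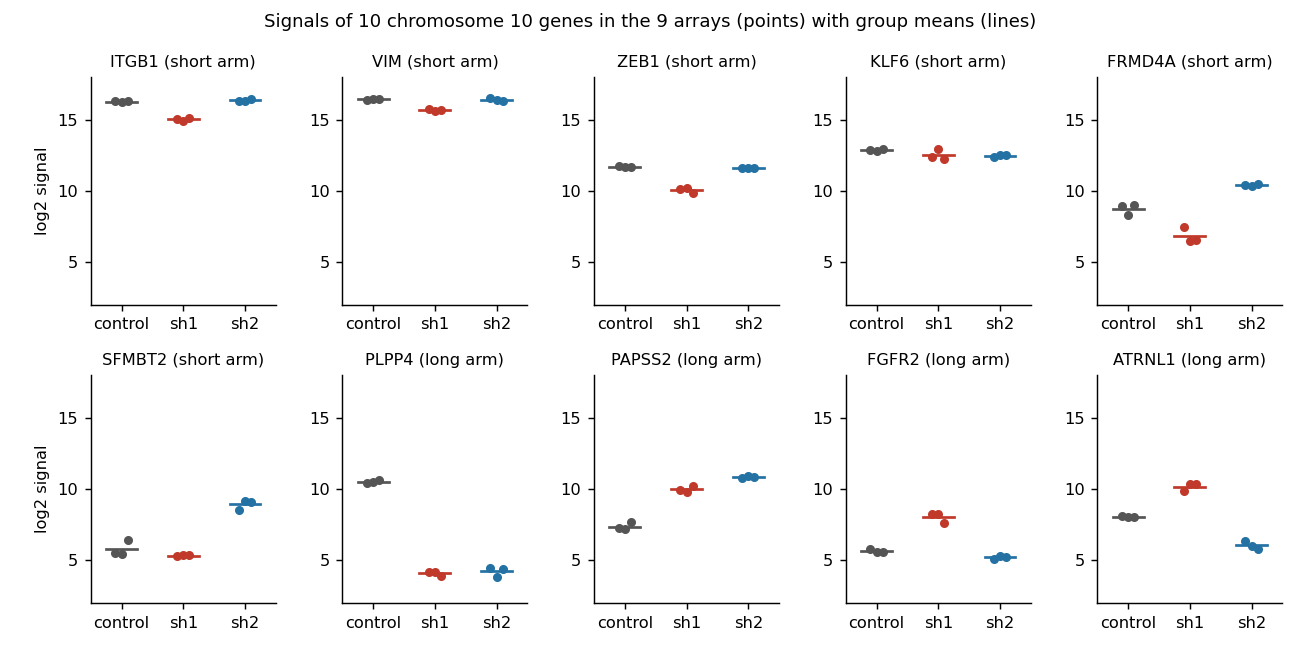
Log2 signals (y axis) of 10 chromosome 10 genes in the 9 arrays, with 3 arrays a group along the x axis and a line at each group mean. ITGB1, VIM and ZEB1 are low in sh1 alone. The KLF6 arrays of sh1 overlap those of control and sh2, and its sh2 arrays lie below the control arrays. FRMD4A and SFMBT2 are high in sh2. Of the long arm genes PLPP4 is low and PAPSS2 high in both lines. FGFR2 is high in sh1, and ATRNL1 is high in sh1 and low in sh2.

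The lists of long arm genes had medians nearer to 0. Over all rows the shares were 9.76% higher and 9% lower for sh1, and 8.33% higher and 7.98% lower for sh2. Of 20 adhesion and cytoskeleton genes, 2 rose and 2 fell in sh1 (median -0.092), and 3 rose and 1 fell in sh2 (median 0.053). PDLIM1, a scaffold on actin fibres, stood at -0.88 in sh1 and -1.19 in sh2, both called. TSPAN15, a tetraspanin partner of ADAM10, rose by 0.81 in sh2, and COL13A1, a transmembrane collagen with a mean signal of 3.79, by 0.73, a call lost without control array 3 (adjusted p = 0.0605). Vinculin (VCL), a link between integrins and actin with a mean signal of 15.09, stood at 0.12 and -0.07 with no call.

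Of 21 measured genes of growth factor and WNT signalling, 1 rose and 1 fell in sh1 (median -0.043), and 2 rose and 1 fell in sh2 (median -0.013), against 9.76% and 9% of the table in sh1 and 8.33% and 7.98% in sh2. NFKB2, the precursor of the p52 subunit of NF-kappa B, was lower in both lines, at -1.23 in sh1 and -0.76 in sh2. DUSP5, a phosphatase of ERK, rose by 0.84 in sh2 and FAS, the death receptor, by 0.76. RET, a receptor tyrosine kinase near the centromere, stood at 0.09 in sh1 and -0.44 in sh2, with no call against the control; the difference of sh2 from sh1 was -0.53 (adjusted p = 0.0359), a call lost without control array 2, sh1 array 2 or 3 or any single sh2 array (adjusted p from 0.0526 to 0.113).

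Of 12 secreted proteases and matrix genes, 2 rose and 2 fell in each line, with medians of -0.05 and 0.055, against 9.76% higher and 9% lower of the table in sh1 and 8.33% and 7.98% in sh2. HTRA1, a secreted serine protease, rose by 0.82 and 1.07 and SRGN, the proteoglycan serglycin, by 0.89 and 1.32. LOXL4 fell, as given above, and ADAMTS14, a procollagen protease, fell as well, at -1.09 and -0.93. PLAU, the urokinase gene, stood at -0.013 and 0.37 without a call.

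The next lists are small, and their counts stand beside 9.76% higher and 9% lower over the table in sh1 and 8.33% and 7.98% in sh2. In the interferon-induced IFIT cluster, whose proteins bind foreign RNA, IFIT3 was the one gene of 6 called against the control. Its differences were -0.49 in sh1 and -1.01 in sh2, and the sh1 call was lost without control array 1 or 2 or any single sh1 array (adjusted p from 0.0629 to 0.0957). The lipase list had 1 called gene of 10 against the control, LIPA, the lysosomal acid lipase, which rose by 0.47 in sh1 (adjusted p = 0.0314); the call was lost without any single control array or sh1 array 1 or 2 (adjusted p from 0.0526 to 0.105). The pancreatic lipase genes PNLIP, PNLIPRP1 and PNLIPRP2 had mean signals of 4.31, 3.83 and 3.98. Of 5 cytochrome P450 genes CYP2E1 rose in sh1 by 0.53 (adjusted p = 0.025), at a mean signal of 3.92, a call lost without control array 1 or 3 or sh1 array 3 (adjusted p from 0.0695 to 0.0924). TIMM23B, an import subunit of mitochondria with a near-identical copy on the same arm, rose by 0.47 in sh1 (adjusted p = 0.048), and the call was lost without any single control array, sh1 array 2 or 3 or sh2 array 2 or 3 (adjusted p from 0.0574 to 0.165). ZNF488 fell by 0.90 in sh2 (adjusted p = 0.0164), a call lost without control array 2, control array 3 or sh2 array 2 (adjusted p = 0.051, 0.0508 and 0.0574).

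With its arms and unplaced rows pooled, chromosome 10 had a median over 418 rows above the median signal of -0.092 in sh1 and -0.028 in sh2. Medians of other chromosomes reached further from 0. Chromosome 5 stood at -0.30 and -0.51, chromosome 6 at -0.23 and -0.20, chromosome 12 at 0.30 and 0.32, and chromosome 15 at 0.75 and 0.25.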

How the data were processed

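RNA of 9 AsPC-1 samples (3 control, 3 sh1, 3 sh2, by the sample titles) was hybridised to 1-colour whole-transcript arrays, 1 array a sample. The deposited values, read as log2 signals from their range of 2.03 to 18.57, were summarised by the authors with Transcriptome Analysis Console, per the submitters' processing notes (version, settings and genome build not given in the sources used here). They were used as deposited, with no pseudocount or filter. All 21448 rows were fitted with limma 3.58.1 in R 4.3.3 (lmFit, eBayes; 3 groups in 1 fit) and p-values adjusted over all rows by Benjamini-Hochberg; a call is an adjusted p under 0.05. The number of arrays limits the precision.

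Gene names are those of the platform annotation and gene order that of RefSeq GRCh38.p14; rows with several symbols or none were not named. Arm medians, runs (a running median of 40 rows past 0.4) and lists are described without a test. The chromosome, its lists and the naming rule were chosen with earlier results of these data known. Named were ITGB1, VIM, ZEB1 and PLPP4; the 6 highest and 6 lowest changes among called genes without overlap in each comparison; the 6 in each direction called in both lines; up to 4 called genes a list; and the genes at the ends of runs. The report lists the genes named outside this rule. Alternatives were other scalings, a filter at the lower quartile, an intensity trend, fits of the compared groups alone, a replicate block, a 2-fold limit, other signal limits, other windows and leaving out each array.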

Additional observations from a re-analysis of the deposited data

Results flagged for a closer look

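The sh2 and sh1 lines differed from each other, by the limma test of sh2 minus sh1 over all rows, in 45 of the 66 named genes, 28 on the short arm and 17 on the long arm, with an adjusted p of 0.044 at most. Over all rows 11.3% were called. The naming rule takes called genes, partly from this comparison, and the short arm was picked for its low sh1 values, so nothing is read from the count. Differences are given as log2 values. The median of the short arm rows above the median signal differed by 1.08, and that difference was not tested. Its array medians, as differences from the control mean, ran from -1.12 to -1.02 in sh1 and from 0.013 to 0.087 in sh2. The sh2 range overlapped that of the control arrays, from -0.04 to 0.027.

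The 28 short arm genes were higher in sh2 than in sh1, a direction that the choice of the arm largely fixes. Among adhesion, polarity and cytoskeleton genes the difference was 1.31 for ITGB1, 0.72 for VIM, 3.58 for FRMD4A, 2.00 for ARHGAP21, 1.13 for SVIL and 1.32 for GDI2. Among regulators of transcription and chromatin it was 1.54 for ZEB1, 1.49 for ZMYND11, 1.08 for SUV39H2, 0.86 for WAC and 3.63 for SFMBT2, and among centromeric zinc finger genes 0.98 for ZNF33A, 0.90 for ZNF25 and 0.86 for ZNF37A. Signalling and cell division genes stood at 1.78 (PIP4K2A), 1.83 (STAM), 1.25 (CCNY), 1.14 (MASTL) and 1.41 (CDC123), and metabolic genes at 1.36 (IDI1), 1.29 (ECHDC3) and 1.19 (ATP5F1C). The remaining short arm genes were OPTN at 1.24, GPR158 at 2.14, PTCHD3 at 1.26, FAM107B at 2.00, AKR1E2 at 1.89 and CDNF at 0.85.

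On the long arm 7 named genes were higher in sh2: SFXN3 by 1.51, TMEM26 by 1.18, COL13A1 by 0.99, FAS by 0.92, PAPSS2 by 0.86, TSPAN15 by 0.63 and NFKB2 by 0.47 on the log2 scale. Lower values in sh2 were found for ATRNL1 (-4.12), MACROH2A2 (-2.87), FGFR2 (-2.84), BICC1 (-2.72), CDH23 (-2.27), ZNF503 (-2.17), RTKN2 (-0.58), CYP2E1 (-0.57), RET (-0.53) and IFIT3 (-0.52).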

How the results depend on the processing

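With a change of at least 2-fold also required, called chromosome 10 rows went from 191 to 77 in sh1 against control, from 133 to 38 in sh2 against control and from 155 to 67 in sh2 against sh1. Leaving out 1 array at a time, these counts ran from 151 to 192, 91 to 133 and 122 to 155. The medians of rows above the median signal then ran, in the order of these comparisons, from -1.08 to -1.03, 0.0083 to 0.095 and 1.08 to 1.14 on the short arm and from -0.01 to 0.047, -0.083 to -0.062 and -0.067 to -0.04 on the long arm.

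Signal limits moved the medians by construction, since other rows enter. In sh1 against control the short arm stood at -0.73 over all its rows, -1.24 above the upper quartile and -0.015 below the median signal, and the long arm at -0.032, 0.042 and -0.067. In sh2 against control the short arm stood at -0.037 above the upper quartile and the long arm at -0.04 below the median. In sh2 against sh1 the short arm stood at 0.79, 1.19 and 0.14, and the long arm at -0.017 over all rows and 0.023 below the median. Windows of 20 rows and sizes of 0.3 and 0.5 kept 1 run in sh1, 0 in sh2 and 1 in sh2 against sh1.

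The array numbers were no evidence of pairing: deviations of same-numbered arrays correlated at -0.0358 to 0.18. With the replicate block, 188, 133 and 152 rows were called. The tally under these settings covers 100 called results on 63 of the 66 named genes, not every call in the report. Of the 100, 88 kept direction and call in every setting but the 2-fold limit, which 23 did not reach. Under the filter on low rows 3 results had no value. The other 12 lost the call under some setting, and none reversed. Lost calls among the 100 are given with their genes in the report, apart from the following. TIMM23B lost its call with quantile normalization (limma adjusted p = 0.0638) or with the compared groups alone (0.0579), and LIPA with the compared groups alone (0.0534). RET lost its call with an intensity trend (0.0621), the compared groups alone (0.0687) or the block (0.0517). Outside the tally are the sh2 call of OPTN and calls on genes outside the naming rule, such as ZNF239 and KIF20B. Many calls of sh2 against sh1 are also outside it, among them NFKB2, IFIT3, CYP2E1 and RTKN2. Whether those calls hold under the settings is not given here. Rows of low signal limit what can be seen, since a gene already near background can hardly fall further. The background level was not measured.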

Other observations

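The 117 chromosome 10 rows without a place in gene order had median differences of -0.033 in sh1 and 0.057 in sh2 against control. In sh1, 14 of them were lower and 4 higher by limma, and in sh2 5 were lower and 3 higher, where 9% and 9.76% of the table were called in sh1 and 7.98% and 8.33% in sh2.

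Among the 68 short arm rows below the median signal, 10 fell and 2 rose in sh1, and 4 fell and 5 rose in sh2. Of all rows below the median signal, 3.7% fell and 3.8% rose in sh1, and 3.04% fell and 3.07% rose in sh2. The short arm was picked for its low sh1 values, so nothing is read from its sh1 counts. KIAA1217, which encodes a cytoskeleton-associated protein, fell in both lines, by 1.79 in sh1 and 1.13 in sh2 (limma adjusted p = 6.6e-06 and 0.000252). CALML5, a calmodulin-like protein of the epidermis, rose by 0.57 in sh1 (adjusted p = 0.0238), and NEBL, an actin-binding protein, by 0.75 in sh2 (adjusted p = 0.0126). These 3 genes were chosen after their values were seen.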
